A study of Rattus norvegicus with 12 samples.

Results

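Sphingosine-1-phosphate (S1P) genes were examined in whole rat lung: the 5 receptors S1pr1, S1pr2, S1pr3, S1pr4 and S1pr5, the kinases Sphk1 and Sphk2, the lyase Sgpl1 and the transporter Spns2. These 9 genes were taken by symbol from a table of 32883 genes. All 9 were among the 15257 genes left after a filter on low counts. The rats were wild type and fell into 3 groups of 4 libraries, each carrying a time of 25 days whose starting point the labels do not give. Control rats have no stated treatment. MCT-vehicle rats received monocrotaline, a plant alkaloid that injures lung vessels and is used as a model of pulmonary hypertension, and then the vehicle of ferrostatin-1 for 10 days. MCT-Fer-1 rats received monocrotaline and, for 10 days, ferrostatin-1, a small molecule that inhibits ferroptosis (cell death by lipid peroxidation). Monocrotaline and vehicle dosing cannot be told apart in the comparison with Control. The sources used here do not give strain, sex or age, nor say whether each library came from a separate animal. The p-values below thus speak of the spread among these libraries, which may be technical.

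S1P is made from sphingosine by sphingosine kinases and is destroyed by S1P lyase, which cleaves it irreversibly. SPNS2 carries it out of endothelial cells, and outside the cell it acts on G protein-coupled receptors. In the lung, S1P receptor 1 is best known for holding the endothelial barrier closed, receptors 2 and 3 for contraction and growth of muscle and mesenchymal cells, and receptors 1, 4 and 5 for the movement of lymphocytes, myeloid cells and natural killer cells.

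The libraries held 11601929 to 70627239 counts. Levels are given as CPM, counts scaled to an equal library total after each total was adjusted by its TMM normalisation factor. A detection floor of 3 counts corresponds to 0.0425 to 0.259 CPM on the totals without that factor. This floor covers counting error only. Lung epithelial markers, surfactant genes among them, summed to 42137 to 44608 CPM in Control, 30626 to 40820 CPM in MCT-vehicle and 30670 to 45404 CPM in MCT-Fer-1. The sums of Control and MCT-vehicle thus did not overlap, as in 21.5% of all genes tested, while MCT-Fer-1 overlapped both. Of the 9 epithelial markers singly, 0 had an edgeR adjusted p below 0.05 in MCT-vehicle against Control, against 18.6% of all genes. Heart-muscle transcripts stood apart in MCT-vehicle 2 (434 CPM in sum) and Control 4 (266 CPM), against at most 82.4 CPM elsewhere. Values of members without these libraries are given where a call was lost.

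Against Control, 3 of the 9 genes rose in MCT-vehicle and 1 fell. Sgpl1 rose 1.67-fold, S1pr3 1.63-fold and Sphk1 1.71-fold, and S1pr4 fell by 0.67 on the log2 scale (edgeR quasi-likelihood test, adjusted p below 0.05). Of the 9 genes, 5 had an unadjusted p below 0.05, against 32.1% of all genes. Among all genes tested, 18.6% were called, 10.3% higher and 8.28% lower, and the median log2 fold change was 0.02 over all genes and -0.15 over the 9. No member was called between MCT-Fer-1 and MCT-vehicle, where 0% of all genes were, although the 4 MCT-Fer-1 values of Sphk1 and of S1pr3 lay below all 4 of MCT-vehicle. Against Control, 1 of the 9 was called in MCT-Fer-1, Sgpl1, where 10.8% of all genes were called, 6.67% higher and 4.12% lower. It was also the 1 member whose groups did not overlap there, against 19.1% of all genes. These comparisons share libraries, so they are not independent of each other.

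The promoters of the called members are shown because these genes are the ones whose transcripts differed. Each is the 250 bases before the RefSeq transcription start, 5′ to 3′ on the gene's strand, in build GRCr8, whose match to the authors' build is not known. The windows are S1pr3 at chr17:13946014-13946263 (minus strand), Sphk1 at chr10:102257163-102257412 (plus strand, the most upstream of 3 starts), Sgpl1 at chr20:29636879-29637128 (minus strand) and S1pr4 at chr7:8858278-8858527 (plus strand). Capitals mark the GC box GGGCGG on either strand, a sequence bound by Sp and KLF factors.
S1pr3: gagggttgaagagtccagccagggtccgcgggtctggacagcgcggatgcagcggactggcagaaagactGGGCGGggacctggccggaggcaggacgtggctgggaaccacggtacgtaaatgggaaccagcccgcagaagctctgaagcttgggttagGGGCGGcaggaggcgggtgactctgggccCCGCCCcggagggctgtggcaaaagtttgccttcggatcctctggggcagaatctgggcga
Sphk1: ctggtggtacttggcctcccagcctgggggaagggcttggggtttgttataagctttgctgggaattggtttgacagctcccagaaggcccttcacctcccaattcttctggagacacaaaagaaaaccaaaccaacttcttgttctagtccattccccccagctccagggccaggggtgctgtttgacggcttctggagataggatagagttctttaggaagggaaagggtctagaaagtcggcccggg
Sgpl1: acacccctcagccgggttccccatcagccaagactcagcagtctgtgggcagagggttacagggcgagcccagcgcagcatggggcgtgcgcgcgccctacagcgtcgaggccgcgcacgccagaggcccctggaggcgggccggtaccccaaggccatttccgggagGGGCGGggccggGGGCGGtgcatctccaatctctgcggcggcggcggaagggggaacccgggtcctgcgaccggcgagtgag
S1pr4: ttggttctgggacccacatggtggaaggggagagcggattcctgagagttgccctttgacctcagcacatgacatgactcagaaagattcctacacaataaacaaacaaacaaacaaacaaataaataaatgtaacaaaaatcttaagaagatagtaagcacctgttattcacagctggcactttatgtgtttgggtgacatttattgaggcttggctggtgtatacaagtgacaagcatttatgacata

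S1pr3 held 3 GC boxes and Sgpl1 held 2, while neither Sphk1 nor S1pr4 held one in this window. Of the members without a call, S1pr5 held 2 and S1pr2 held 1, so 4 of the 8 members with a promoter had a GC box. Of all 33469 windows of this length, 30.5% held a GC box. S1pr4 was the least GC-rich of the 8 members with a promoter in the table, at 39.6% G and C, and Sgpl1 the most GC-rich at 72.8%, against a median of 51.2% over all windows. The AP-1 motif TGANTCA was in S1pr4 only among the 8, against 6.34% of windows. The E-box CANNTG was in 3 of the 8, with 5 matches in S1pr4 and 1 each in S1pr2 and S1pr5, against 65.5% of windows. The KLF motif CACCC was in 7 of the 8, against 49.2% of windows, and the hypoxia core ACGTG in S1pr3 only, against 16.6%. Motifs were searched on both strands; in the 4 windows shown no 2 matches of different motifs shared a base, and a match is a description of the sequence and not of binding.

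Among the enzymes, Sgpl1 (ENSRNOG00000000565), the endoplasmic reticulum lyase that ends S1P signalling by cleaving the lipid, differed most clearly. Sgpl1 stood at 86.8, 92.5, 87.6 and 84.9 CPM in Control 1 to 4. In MCT-vehicle 1 to 4 it stood at 136, 135, 186 and 130 CPM, and in MCT-Fer-1 1 to 4 at 123, 146, 148 and 119 CPM. All 8 monocrotaline libraries lay above all 4 Control libraries, and the monocrotaline groups overlapped each other. The mean ± SD of 4 libraries was 88.0 ± 3.26 CPM for Control, 147 ± 26.3 CPM for MCT-vehicle and 134 ± 15.0 CPM for MCT-Fer-1. The log2 fold change was 0.74 ± 0.11 (SE) in MCT-vehicle (edgeR adjusted p = 8.64e-04) and 0.61 ± 0.11 in MCT-Fer-1 (edgeR adjusted p = 0.00436), both against Control. Between MCT-Fer-1 and MCT-vehicle it was -0.13 ± 0.11, with a 95% interval of -0.37 to 0.11 (edgeR adjusted p = 0.672). The calls against Control held in each of 20 alternative fits. MCT-vehicle 3, at 186 CPM, stood far above the rest of its group, and without it the log2 fold change in MCT-vehicle against Control was 0.60 (edgeR adjusted p = 6.97e-04).

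Sphk1 (ENSRNOG00000010626) encodes the inducible cytoplasmic kinase that makes S1P at the plasma membrane. Its Control values were 7.15, 4.71, 4.64 and 3.85 CPM. MCT-vehicle gave 11.2, 7.94, 5.67 and 9.82 CPM, and MCT-Fer-1 gave 4.57, 4.06, 3.71 and 4.61 CPM. Control 1 lay above MCT-vehicle 3, so these groups overlapped, while every MCT-Fer-1 library lay below every MCT-vehicle library. The rise in MCT-vehicle against Control was 0.77 ± 0.23 on the log2 scale (edgeR adjusted p = 0.0339). This call was lost in 8 of 20 alternative fits, among them those without Control 2 (adjusted p = 0.0852), Control 3 (0.0887), Control 4 (0.0977), MCT-vehicle 1 (0.0948), MCT-vehicle 4 (0.0804) or MCT-vehicle 2 and Control 4 together (0.113), with values of 0.62 to 0.98 over all 20.

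Between MCT-Fer-1 and MCT-vehicle the log2 fold change of Sphk1 was -1.04 ± 0.23 with a 95% interval of -1.53 to -0.54. Its unadjusted edgeR p was 6.24e-04, the 59th smallest of 15257, but the adjusted p was 0.158. The DESeq2 Wald test gave adjusted p = 0.00446, and edgeR without MCT-vehicle 3 gave -1.19 (adjusted p = 0.0483); over the 20 alternatives the adjusted p reached 0.361. Against Control, MCT-Fer-1 differed by -0.26 ± 0.23 (edgeR adjusted p = 0.529). Raw counts of Sphk1 ran from 53 to 330 per library. In the RefSeq annotation Sphk1 overlaps the transcript Khps1a, and the strand setting of the count is not given, so reads of these could not be told apart.

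Sphk2 (ENSRNOG00000021032), the second kinase, found in the nucleus and at mitochondria, differed little between groups. Sphk2 ran from 47.5 to 51.3 CPM in Control, from 48.5 to 61.6 CPM in MCT-vehicle and from 43.4 to 56.7 CPM in MCT-Fer-1. Its log2 fold change was 0.13 in MCT-vehicle against Control with a 95% interval of -0.07 to 0.33, and -0.09 in MCT-Fer-1 against MCT-vehicle with an interval of -0.30 to 0.11. No call was made (edgeR adjusted p = 0.373 and 0.728). As a ratio within each library, Sphk1 to Sphk2 was higher in MCT-vehicle than in Control by 0.63 on the log2 scale (exact two-sided permutation test, p = 0.0571, adjusted p = 0.257). The ratio was lower in MCT-Fer-1 than in MCT-vehicle by a difference of -0.88 (exact permutation p = 0.0286, adjusted p = 0.257), with the groups apart in all 8 libraries. The smallest p that 4 against 4 libraries allow is 0.0286, and the adjustment ran over 9 tests of ratios.

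**Figure D1:**
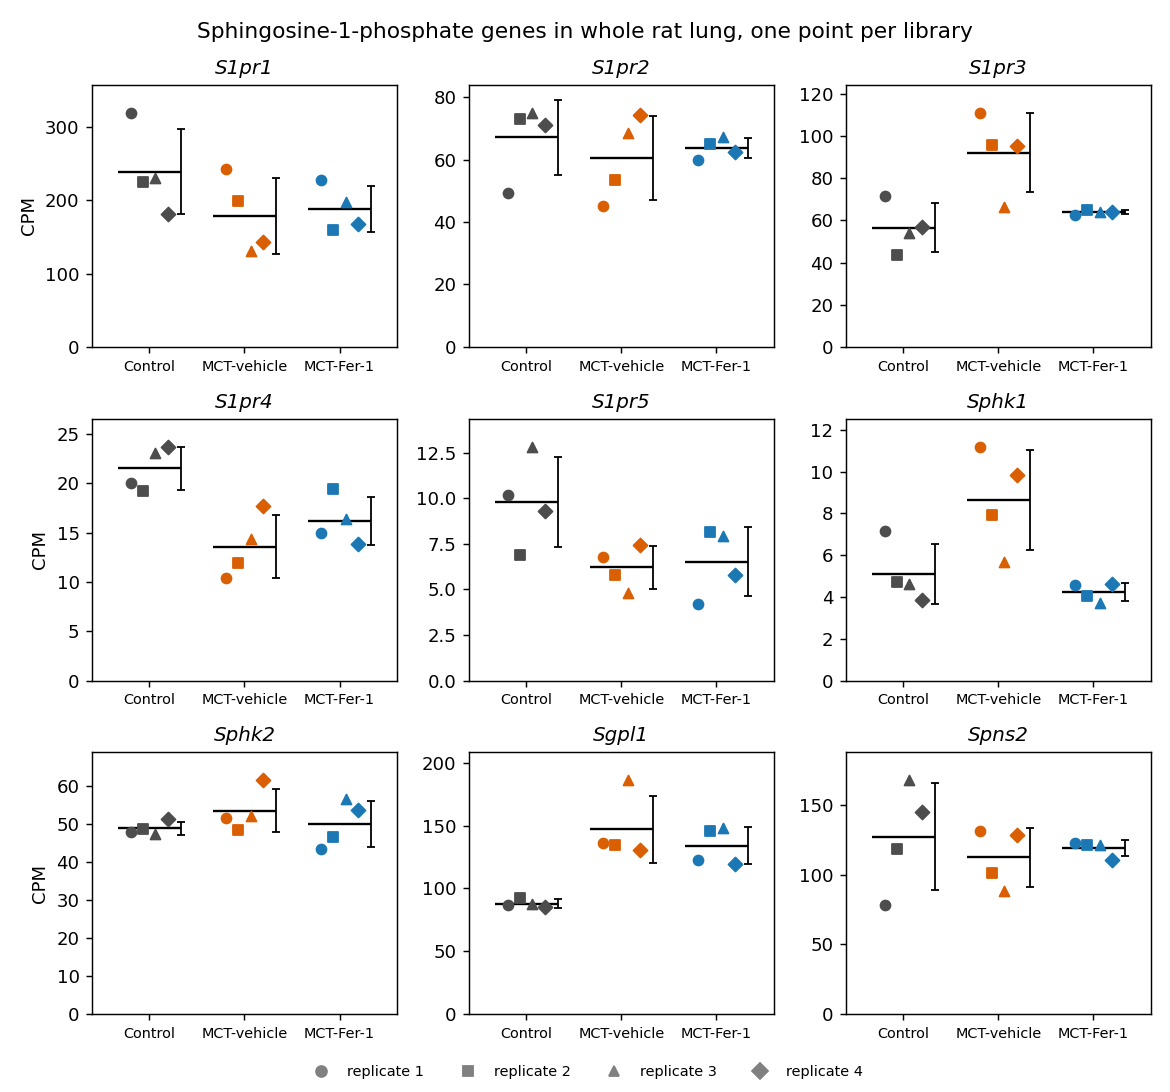
Level of each of the 9 genes in CPM (vertical axis from 0, a scale of its own per gene) in the 3 groups (horizontal axis), with 1 point per library, its shape giving the replicate number, a line at the group mean and a bar of 1 SD. Sgpl1 separates Control from both monocrotaline groups, while S1pr3 and Sphk1 are highest in MCT-vehicle, and the 4 MCT-Fer-1 libraries of S1pr3 lie between 62.7 and 64.8 CPM.

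Among the receptors, S1pr3 (ENSRNOG00000014524), which couples to Gi, Gq and G12/13 proteins and is prominent on vascular muscle, followed the pattern of Sphk1. It was counted at 71.6, 43.4, 54.1 and 56.9 CPM in Control 1 to 4. The 4 MCT-vehicle libraries had 111, 95.7, 66.2 and 95.1 CPM. The 4 MCT-Fer-1 libraries had 62.7, 64.8, 64.0 and 64.1 CPM. MCT-Fer-1 thus lay below every MCT-vehicle library by a margin as small as 64.8 against 66.2 CPM. That margin rests on the TMM factors. On plain totals, MCT-vehicle 3 (887 of 13654695 counts) and MCT-Fer-1 4 (4585 of 70627239 counts) were nearly level. Control overlapped both monocrotaline groups through Control 1. S1pr3 rose in MCT-vehicle by 0.70 ± 0.15 on the log2 scale against Control (edgeR adjusted p = 0.00785), and this call held in each of the 20 alternatives. Against MCT-vehicle, MCT-Fer-1 differed by -0.53 ± 0.15 (95% interval -0.86 to -0.19). The unadjusted edgeR p was 0.00487 and the adjusted p was 0.241. Across the 20 alternatives that adjusted p ran from 0.0567 to 0.432, and none made a call. MCT-Fer-1 and Control differed by 0.18 ± 0.15 (edgeR adjusted p = 0.527).

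In both S1pr3 and Sphk1, MCT-vehicle 1 was the highest and MCT-vehicle 3 the lowest library of its group, and Control 1 the highest Control library. At an unadjusted p below 0.05, these were the 2 of 9 members in MCT-Fer-1 against MCT-vehicle, where 12% of all genes passed. They were also the 2 of 9 whose groups did not overlap there, against 6.10% of all genes. Smooth muscle and pericyte markers summed to 1029 to 1721 CPM in Control, 1326 to 2061 CPM in MCT-vehicle and 1167 to 1709 CPM in MCT-Fer-1. In MCT-vehicle against Control, 10.3% of all genes were called higher and 8.28% lower. Of the 11 markers, 1 was higher (Pdgfrb, log2 fold change 0.46, edgeR adjusted p = 0.0492) and 1 lower (Rgs5, -1.32). These markers had a median log2 fold change of 0.33, and 5 of 11 had an unadjusted edgeR p below 0.05, against 32.1% of all genes. Their part in the S1pr3 values was not tested. In bulk tissue, fewer cells of a type and less RNA per cell cannot be told apart.

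**Figure D2:**
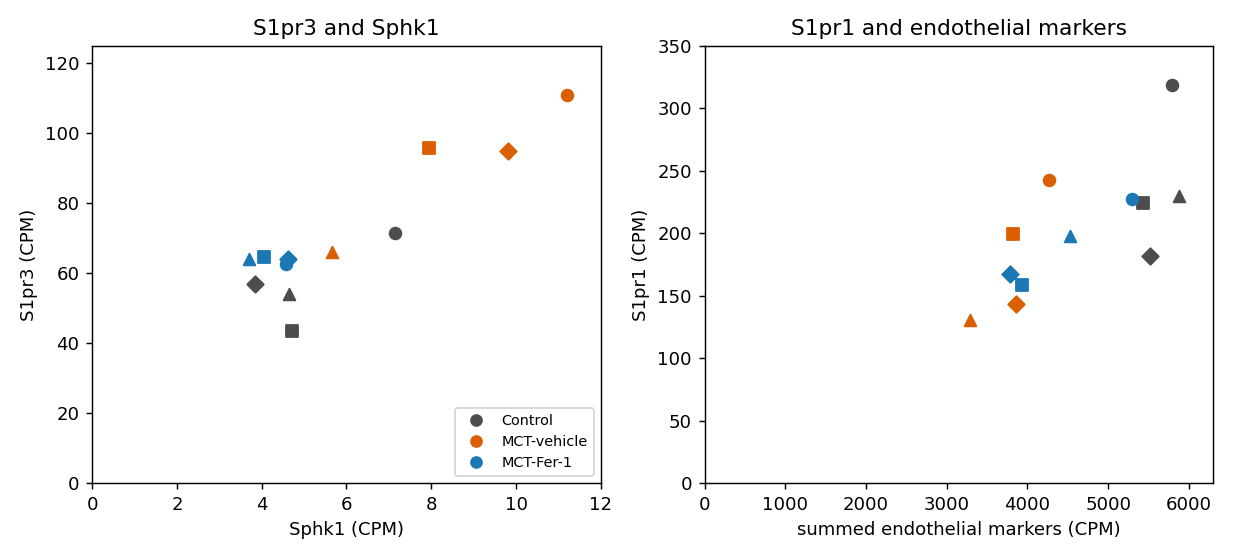
Left, S1pr3 against Sphk1, and right, S1pr1 against the sum of the endothelial markers, all in CPM with axes from 0, 1 point per library, colours giving the group and shapes the replicate number. MCT-vehicle 1, 2 and 4 stand apart at the upper right on the left, and the monocrotaline libraries lie to the left of Control in the endothelial sum on the right.

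S1pr4 (ENSRNOG00000005370), a receptor of lymphoid and myeloid cells, was the member that fell. Its values were 20.01, 19.3, 23.1 and 23.7 CPM in Control 1 to 4, against 10.4, 11.9, 14.3 and 17.7 CPM in MCT-vehicle 1 to 4. MCT-Fer-1 lay between, at 15.0, 19.4, 16.4 and 13.8 CPM, and overlapped both. All MCT-vehicle libraries lay below all Control libraries. These groups did not overlap, in either direction, in 21.5% of genes tested. The log2 fold change in MCT-vehicle against Control was -0.67 ± 0.16 (edgeR adjusted p = 0.0123). The call was lost in 1 of 20 alternatives, without MCT-vehicle 2 and Control 4 together (log2 fold change -0.56, adjusted p = 0.0863). MCT-Fer-1 differed from Control by -0.41 ± 0.16 (edgeR adjusted p = 0.121) and from MCT-vehicle by 0.25 ± 0.16 (edgeR adjusted p = 0.552). The first of these was called by limma voom with quality weights (-0.47, adjusted p = 0.0272).

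In MCT-vehicle against Control, 18.6% of all genes were called, 10.3% higher and 8.28% lower. T and B lymphocyte markers, measured in the same libraries, had 0 of 10 called there, with a median log2 fold change of -0.26. Cd4, the most counted of them, had 0.51 and every other one a negative value. Their sum ran from 155 to 181 CPM in Control and from 128 to 201 CPM in MCT-vehicle. Neutrophil markers had 0 of 6 called and a median log2 fold change of -0.72. Of these 6, 2 had an unadjusted edgeR p below 0.05, against 32.1% of all genes. The neutrophil sums were 175 to 320 CPM in Control and 146 to 210 CPM in MCT-vehicle. Macrophage and monocyte markers had 8 of 11 higher and 0 lower, with sums of 931 to 1063 CPM in Control and 1267 to 1872 CPM in MCT-vehicle. Mast cell markers had 7 of 8 higher and 1 lower (Kit), with sums of 202 to 285 CPM in Control and 348 to 1039 CPM in MCT-vehicle. Erythroid and platelet markers, from cells that carry much of the S1P in blood, had 1 of 5 higher and 3 lower. The higher one was the platelet gene Pf4 (log2 fold change 0.69), and the lower ones were the red cell genes Hbb, Alas2 and Slc4a1. Itga2b, the other platelet gene tested, had -0.48 with no call. The sums of this list, mostly Hbb, were 1444 to 2212 CPM in Control and 700 to 1019 CPM in MCT-vehicle. The part of these cells in the values of S1pr4, Sphk1 and Sgpl1 was not tested.

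S1pr5 (ENSRNOG00000020901), the receptor that lets natural killer cells leave lymphoid tissue, was the least counted receptor, at 49 to 412 raw counts per library. S1pr5 had 10.2, 6.87, 12.8 and 9.29 CPM in Control 1 to 4. MCT-vehicle 1 to 4 had 6.79, 5.81, 4.77 and 7.46 CPM. The libraries of MCT-Fer-1 had 4.22, 8.16, 7.94 and 5.76 CPM. Control 2 lay among the monocrotaline values, so the groups overlapped. The log2 fold change against Control was -0.65 ± 0.24 in MCT-vehicle (95% interval -1.17 to -0.14, edgeR adjusted p = 0.0749) and -0.58 ± 0.24 in MCT-Fer-1 (interval -1.09 to -0.07, adjusted p = 0.144). Without Control 2, edgeR called the first (-0.79, adjusted p = 0.0455), as did the DESeq2 Wald test (-0.66, adjusted p = 0.0366). Of 10 natural killer cell markers tested, 0 were higher and 1 lower in MCT-vehicle against Control, where 10.3% of all genes were higher and 8.28% lower. The 1 was the chemokine gene Ccl5 (log2 fold change -0.69, edgeR adjusted p = 0.0298). Those markers had a median log2 fold change of -0.51, and their sum ran from 178 to 252 CPM in Control, 95.7 to 167 CPM in MCT-vehicle and 161 to 217 CPM in MCT-Fer-1. Their part in the S1pr5 values was not tested.

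S1pr1 (ENSRNOG00000013683), the Gi-coupled receptor of endothelium and lymphocytes, had no call in any of the 3 comparisons. S1pr1 stood at 319, 224, 230 and 182 CPM in Control 1 to 4. It stood at 243, 199, 131 and 143 CPM in MCT-vehicle 1 to 4, and at 228, 159, 198 and 167 CPM in MCT-Fer-1 1 to 4. The groups overlapped throughout, and Control 1 was the highest of the 12 libraries. MCT-vehicle differed from Control by -0.42 ± 0.21 on the log2 scale, with a 95% interval of -0.88 to 0.05 (edgeR adjusted p = 0.200). MCT-Fer-1 differed from MCT-vehicle by 0.07 ± 0.21, with an interval of -0.39 to 0.53 (edgeR adjusted p = 0.923). MCT-Fer-1 differed from Control by -0.35 ± 0.21 (interval -0.81 to 0.11, edgeR adjusted p = 0.344).

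Endothelial markers summed to 5433 to 5872 CPM in Control, 3290 to 4265 CPM in MCT-vehicle and 3787 to 5297 CPM in MCT-Fer-1. Of 12 tested, 1 was higher and 5 lower in MCT-vehicle against Control, with a median log2 fold change of -0.36. The share called over all genes was 18.6%. The 12 did not move together. Tek (-1.95), Clec14a (-1.83) and Ptprb (-1.28) fell most, Tie1 stood at -0.02, and Egfl7 (0.28) and Emcn (0.80) had positive values. Ratios to the mean of these markers thus depend on which markers were averaged. Relative to the mean log2 level of these 12 markers, S1pr1 differed between MCT-vehicle and Control by 0.11 (exact two-sided permutation test, p = 0.686, adjusted p = 0.771). Relative to the same markers, it differed between MCT-Fer-1 and MCT-vehicle by -0.12 (exact permutation p = 0.457, adjusted p = 0.588). Spns2 (ENSRNOG00000057040), the exporter of S1P from endothelial cells, ran from 78.4 to 168 CPM in Control, 88.4 to 132 CPM in MCT-vehicle and 111 to 123 CPM in MCT-Fer-1. Its log2 fold change was -0.18 ± 0.20 in MCT-vehicle against Control (95% interval -0.61 to 0.25, edgeR adjusted p = 0.570) and 0.08 ± 0.20 in MCT-Fer-1 against MCT-vehicle (edgeR adjusted p = 0.896). Relative to the endothelial markers, Spns2 differed between MCT-vehicle and Control by 0.40 (exact permutation p = 0.171, adjusted p = 0.514). In the 4 Control libraries, Spns2 was lowest in Control 1, the library with the most S1pr1. Lymphatic endothelial markers, a separate list, went the other way by their median in MCT-vehicle against Control. Their sums overlapped, at 1170 to 1277 CPM in Control and 1216 to 1465 CPM in MCT-vehicle. Of 7 tested, 4 were higher and 1 lower (Lyve1), with a median log2 fold change of 0.96. The part of lymphatic endothelium in the S1pr1 and Spns2 values was not tested.

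S1pr2 (ENSRNOG00000020653), which couples to G12/13 and restrains cell migration, ran from 49.4 to 74.9 CPM in Control, 45.2 to 74.4 CPM in MCT-vehicle and 60.0 to 67.4 CPM in MCT-Fer-1. Its log2 fold change was -0.15 ± 0.16 in MCT-vehicle against Control (95% interval -0.49 to 0.19, edgeR adjusted p = 0.539). In MCT-Fer-1 against MCT-vehicle the value was 0.08 ± 0.16 (interval -0.26 to 0.42, edgeR adjusted p = 0.869). Control 1 and MCT-vehicle 1 had the lowest S1pr2 of their groups and the highest S1pr1 and S1pr3.

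**Figure D3:**
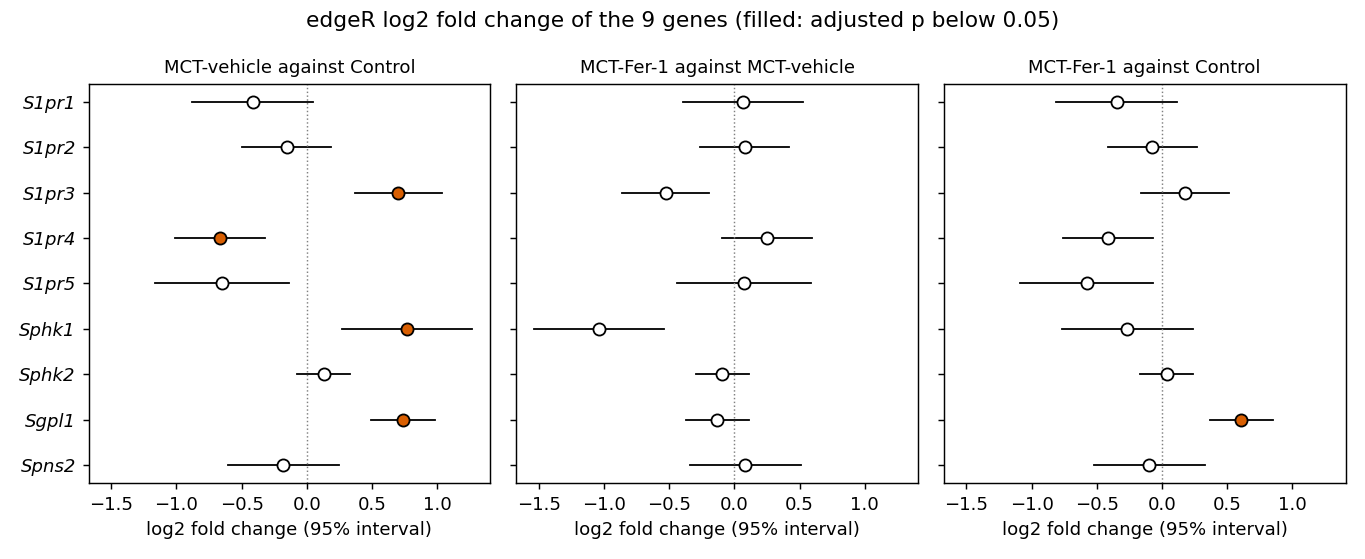
The edgeR log2 fold change of each gene (horizontal axis) with its 95% interval in the 3 comparisons, filled where the adjusted p was below 0.05. S1pr3, S1pr4, Sphk1 and Sgpl1 are filled in MCT-vehicle against Control, none in MCT-Fer-1 against MCT-vehicle, and Sgpl1 in MCT-Fer-1 against Control.

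The rest of S1P handling was looked at through ceramidases, which release the sphingosine that the kinases use, phosphatases, which undo the kinase step, and carriers. Of 14 such genes, 12 were tested, and 1 was called in MCT-vehicle against Control, Acer2, with a median log2 fold change of 0.09 over the 12, where 18.6% of all genes were called. Acer2 (ENSRNOG00000007637), the Golgi alkaline ceramidase, stood at 1695, 1088, 1107 and 686 CPM in Control 1 to 4. It stood at 333, 282, 226 and 235 CPM in MCT-vehicle 1 to 4 and at 369, 188, 209 and 186 CPM in MCT-Fer-1 1 to 4. Every monocrotaline library lay below every Control library, and Control 1 was again the highest. Acer2 fell by 2.09 ± 0.29 on the log2 scale in MCT-vehicle (edgeR adjusted p = 6.82e-04) and by 2.27 ± 0.29 in MCT-Fer-1 (edgeR adjusted p = 5.48e-04), both against Control, and both calls held in all 20 alternatives. MCT-Fer-1 and MCT-vehicle differed by -0.18 ± 0.28 (edgeR adjusted p = 0.832). The other ceramidases tested, Asah1, Asah2 and Acer3, had log2 fold changes of 0.05, 0.13 and -0.06 in MCT-vehicle against Control, with no call. The S1P phosphatase genes Sgpp1 and Sgpp2 had -0.08 and 0.21, the lipid phosphatase genes Plpp1, Plpp2 and Plpp3 had 0.47, -0.31 and -0.02, the S1P carrier gene Apom had 0.39, and the lipid transporter genes Abcc1 and Abca1 had 0.19 and 0.35, none of them called. Mfsd2b, the S1P exporter of red cells, and Acer1 were below the filter.

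Of 24 tested enzymes of ceramide, glycosphingolipid and sphingomyelin metabolism, 9 were called in MCT-vehicle against Control, 4 higher and 5 lower, with a median of 0.06. The share over all genes was 18.6%. The 5 lower were Kdsr, Cers4, Ugcg, Degs2 and Cers2, and the higher ones included Galc, Smpd4 and Smpdl3a. Kdsr, the reductase of the second step of sphingoid base synthesis, went from 61.0 ± 2.17 CPM (mean ± SD of 4 libraries) in Control to 42.6 ± 2.48 CPM under monocrotaline with vehicle and 44.6 ± 3.65 CPM under monocrotaline with ferrostatin-1. Its log2 fold change in MCT-vehicle was -0.52 ± 0.07 (edgeR adjusted p = 4.75e-04). Cers4, a ceramide synthase, stood at 33.3 ± 3.79, 19.9 ± 3.76 and 26.7 ± 1.66 CPM in the same order, with -0.74 ± 0.13 in MCT-vehicle (edgeR adjusted p = 0.00213). Galc, the lysosomal galactosylceramidase, rose by 1.03 ± 0.19 from 8.13 ± 0.578 to 16.7 ± 4.93 CPM (edgeR adjusted p = 0.00247). Ugcg, which makes glucosylceramide, changed by -0.39 ± 0.10 (edgeR adjusted p = 0.0189), a call that ended when Control 3 was left out (adjusted p = 0.0527) or MCT-vehicle 2 and Control 4 were both left out (adjusted p = 0.0557). In MCT-Fer-1 against Control, 2 of 24 were higher and 2 lower. The shares over all genes there were 6.67% higher and 4.12% lower. Set against MCT-vehicle, MCT-Fer-1 had 0 of the 24 called.

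Of 20 genes for receptor coupling and regulation, 2 were higher and 4 lower in MCT-vehicle against Control, with a median of -0.16, where 18.6% of all genes were called, 10.3% higher and 8.28% lower. The higher were Gpr183, a chemotactic oxysterol receptor of immune cells (1.26 ± 0.20, edgeR adjusted p = 9.90e-04), and Arrb2, an arrestin that takes receptors off the membrane (0.42 ± 0.09, adjusted p = 0.00835). The lower were Arrb1, Gnaq, Foxo1 and Grk2. Arrb1 changed by -0.48 ± 0.13 (edgeR adjusted p = 0.0228) and Gnaq by -0.33 ± 0.10 (adjusted p = 0.0442). The call of Arrb1 was lost without Control 2, 3 or 4 or without MCT-vehicle 1, 2 or 4 (adjusted p 0.0508 to 0.0674), and without MCT-vehicle 2 and Control 4 together (adjusted p = 0.120). The call of Gnaq was lost without Control 1, 2 or 3, without MCT-vehicle 1, 3 or 4, and without MCT-Fer-1 3 or 4 (adjusted p 0.0519 to 0.132), as well as with thinning (adjusted p = 0.0628) and in the fit of only the 2 groups (adjusted p = 0.0596). Klf2, a flow-responsive transcription factor known to induce S1pr1, had means ± SD of 78.2 ± 18.5 CPM for Control, 37.2 ± 12.1 CPM for MCT-vehicle and 40.01 ± 20.4 CPM for MCT-Fer-1 (n = 4 each), with no call (log2 fold change -1.06 ± 0.36 in MCT-vehicle against Control, edgeR adjusted p = 0.0598). Klf2 was named after its values were seen. In MCT-Fer-1 against MCT-vehicle, 0 of the 20 were called.

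**Figure D4:**
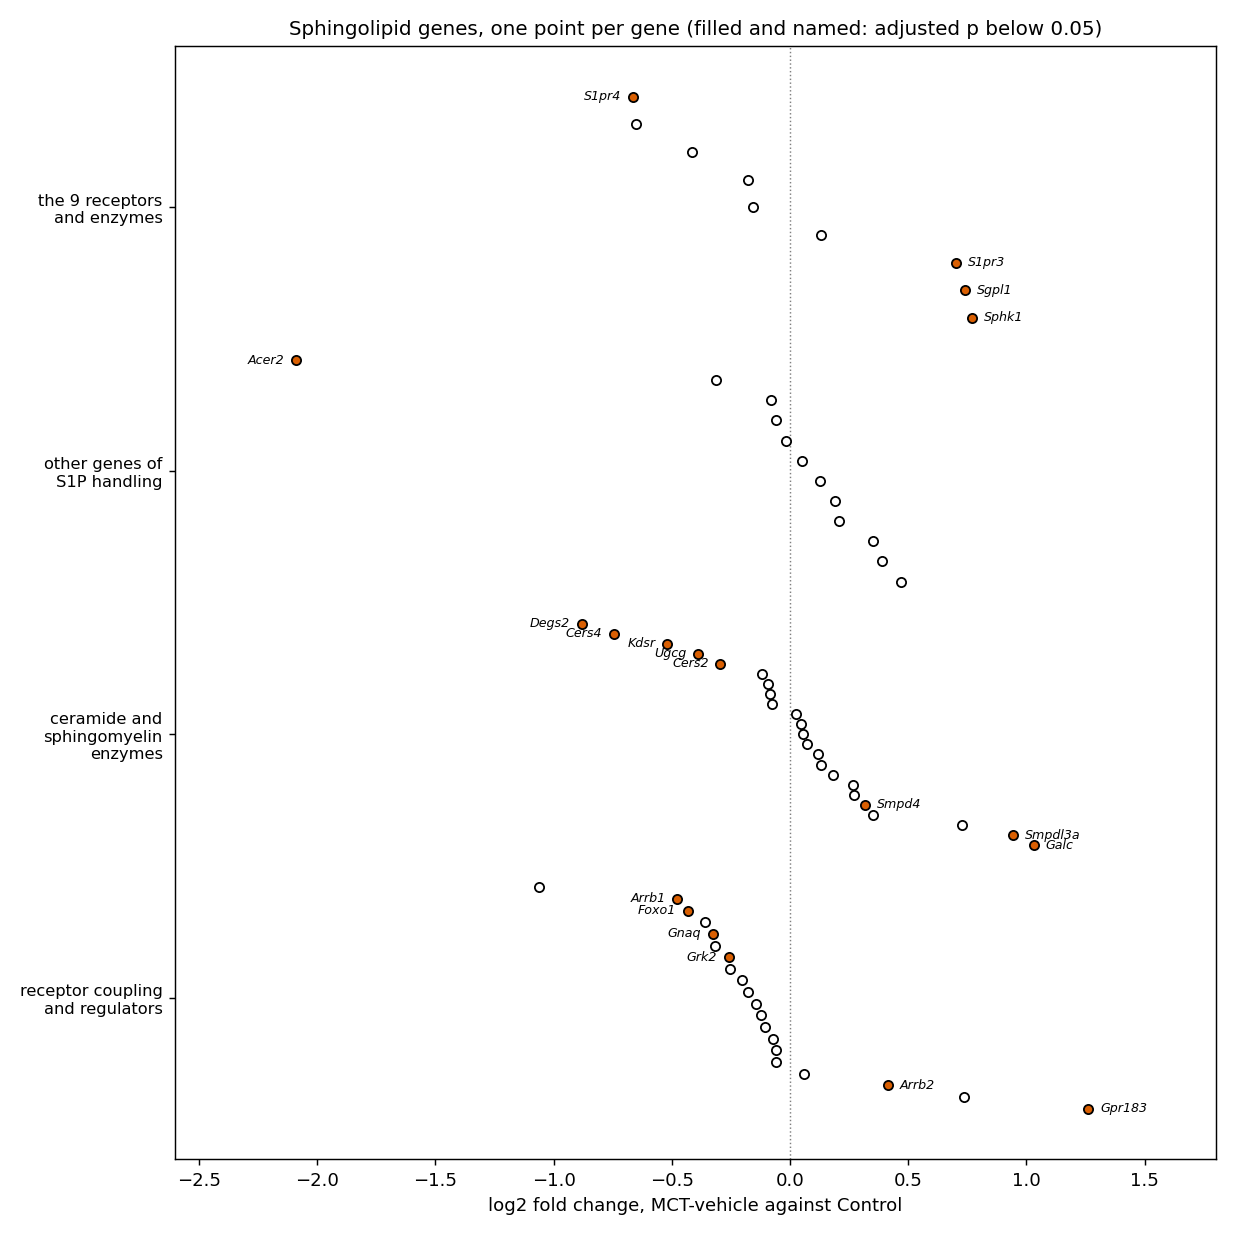
The edgeR log2 fold change in MCT-vehicle against Control (horizontal axis) of the tested genes in 4 lists (vertical axis, sorted within each list; 1 enzyme gene is not shown), filled and named where the adjusted p was below 0.05. Acer2 lies farthest to the left at -2.09, and Gpr183 farthest to the right at 1.26.

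The genes with the most similar levels to each called member were listed as a description, by Pearson's r of log2 CPM. This used the same 12 libraries, which share the group differences. Only genes with an ordinary symbol were ranked, leaving out locus, clone and similar identifiers. For Sgpl1 they were Plod1, Ctsa and Igf1 (r of 0.97 each), and for S1pr3 they were Tnfrsf1a, Tbrg4 and Rcan1 (0.95, 0.94 and 0.93). For Sphk1 they were Nsmf, Ctu2 and Tssc4 (0.95, 0.95 and 0.94), and for S1pr4 they were Sin3a, Stat6 and Snx33 (each 0.95).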

How the data were processed

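Whole-lung RNA of 12 libraries was measured as raw counts of reads for each gene, deposited by the authors, per the file headers. The deposited table also holds the authors' mean count of each group, which equalled the mean of the 4 libraries and was not used. The sources used here name no aligner, counter, strand setting or genome build. Groups came from the sample titles.

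edgeR's filterByExpr kept 15257 of 32883 genes, with 99.9% of counts. Counts were scaled by TMM, and a robust quasi-likelihood fit took 1 coefficient per group over all 12 libraries, leaving 9 residual degrees of freedom. A gene counted as called where its p, adjusted over all genes by Benjamini and Hochberg, was below 0.05. Standard errors and 95% intervals came from that fit. Ratios and similarity used log2 CPM with a prior count of 2, and ratios were compared by exact two-sided permutation. The software was R 4.3.3 with edgeR 4.0.16, DESeq2 1.42.0 and limma 3.58.1. The fit was tested on simulated counts.

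Members and lists were chosen with earlier results of these data known. Of 176 symbols, 172 matched and 162 were tested. The rule for naming took all members, up to 4 genes per list by smallest p, and the 3 genes of ordinary symbol most similar to each called member. Other genes are named to complete a count, after their values were seen. The smallest chi-square between libraries was 10.4 per degree of freedom, so none was a mere repeat sequencing of another. This cannot tell whether libraries came from the same animal. Promoters came from RefSeq (GRCr8) for 8 of 9 members. Alternatives were DESeq2 size factors, no filter, DESeq2, limma voom with quality weights, a fit of only the 2 groups compared, a replicate block, thinning to the smallest library, and leaving out libraries; for the list genes they were added after seeing the data. Of the enzymes of ceramide and sphingomyelin metabolism, 1 gene is counted but not reported by name here.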

Additional observations from a re-analysis of the deposited data

Results flagged for a closer look

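Within groups of 4, a library was set apart where its gap to the nearest other exceeded 0.829 of the group's range (Dixon's criterion). This was checked in 36 groups, and chance gives it in about 1 in 20. It marked 3. Sgpl1 stood at 186 CPM in MCT-vehicle 3, against 130 to 136 CPM in the other MCT-vehicle libraries. S1pr2 stood at 49.4 CPM in Control 1, against 71.2 to 74.9 CPM in the other Control libraries. Spns2 stood at 111 CPM in MCT-Fer-1 4, the deepest library, against 122 to 123 CPM in the rest of its group.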

How the results depend on the processing

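Without MCT-vehicle 2 and Control 4 together, 2 members (Sgpl1 and S1pr3) and 1675 genes were called in MCT-vehicle against Control, and 978 genes in MCT-Fer-1 against Control. Leaving out 1 library at a time gave 3 to 4 members and 2021 to 2860 genes in MCT-vehicle against Control, and 1 member and 977 to 1714 genes in MCT-Fer-1 against Control. In MCT-Fer-1 against MCT-vehicle it gave 0 to 1 members and 0 to 41 genes, with 41 genes and Sphk1 without MCT-vehicle 3, 3 genes without Control 2 and 2 genes without MCT-Fer-1 4. There the DESeq2 Wald test called 237 genes and 1 member (Sphk1), and thinning and the fit of only the 2 groups called 1 gene each. Limma voom called 2 members (Sgpl1 and S1pr4) in MCT-Fer-1 against Control. Its count of all genes called there was within 1.5-fold of the 1646 (10.8%) of the main fit. Small fold changes changed sign as libraries were left out. In MCT-Fer-1 against MCT-vehicle, S1pr1 ran from -0.056 to 0.25, S1pr2 from -0.037 to 0.20, S1pr5 from -0.046 to 0.22, Sgpl1 from -0.18 to 0.0038 and Spns2 from -0.016 to 0.17. In MCT-Fer-1 against Control, Sphk2 ran from -0.026 to 0.099 and Spns2 from -0.27 to 0.064. S1pr1 relative to endothelial markers was -0.070 without MCT-vehicle 2 and Control 4 together in MCT-vehicle against Control. In MCT-Fer-1 against Control it was 0.047 with summed markers, and -0.12 to 0.13 leaving out 1 library. The cause of these changes was not tested.

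With the replicate block, 2812 genes and 5 members were called in MCT-vehicle against Control, S1pr1 among them (log2 fold change -0.42, adjusted p = 0.0480), 0 genes in MCT-Fer-1 against MCT-vehicle, and 1676 genes and 1 member in MCT-Fer-1 against Control. Libraries of the same number had correlated deviations of -0.06 to 0.10, and 1, 0 and 2 of 4 correlated best with their own number in these comparisons, so the libraries share only a number.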
